A study of Homo sapiens with 2 samples.

Results

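The genes that carry a cell through G1 into S phase were followed in L-540, an established Hodgkin lymphoma cell line, in 1 culture treated with vorinostat, an inhibitor of histone deacetylases, and 1 culture left untreated. The members were chosen by symbol: the inhibitors CDKN1A, CDKN1B, CDKN2C and CDKN2D, the cyclins CCND2, CCND3 and CCNE1, and the kinases CDK2, CDK4 and CDK6, 10 genes in all. Every probe set that the array's annotation pairs with one of these symbols was taken, which gave 14 probe sets of 9 genes among 11963 genes with a probe set of their own. CDKN2C had 0 such probe sets, so it has no signal here and enters only the counts of promoter sequences. Each culture was measured on 1 Affymetrix HG_U133A array from total RNA. The labels gave neither a dose nor a time of treatment, and both cultures carried the same cell line grown under standard conditions. With 1 array in each group no test was possible, no p-value is given, and every difference below is one between these 2 arrays. In RNA from a whole culture, fewer cells that express a gene and less of its RNA per cell cannot be told apart. The values are MAS5 signals, linear intensities that condense the probes of a probe set into 1 number, and signals of different probe sets are not set against each other.

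D-type cyclins bind CDK4 and CDK6 and, with cyclin E and CDK2, phosphorylate the retinoblastoma protein, which releases E2F factors to switch on S-phase genes. INK4 inhibitors block CDK4 and CDK6, whereas the KIP inhibitors p21 and p27 bind cyclin-CDK complexes more widely. CDKN1A, the gene of p21, is among the genes most often described as induced by histone deacetylase inhibitors, and the GC boxes of its promoter, to which Sp1 and Sp3 bind, are known for that response.

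Of the 9 genes with a probe set, CCND3 was at least 2-fold higher in vorinostat-treated cells, 0 were at least 2-fold lower and 8 lay within 2-fold on their brightest probe set. CDKN1A and CCNE1 were higher by smaller factors, 1.55-fold and 1.52-fold. CDKN1B and CDK6 were 1.89-fold and 1.75-fold lower. Across all 8277 genes measured, 3.77% reached 2-fold in the higher direction and 5.12% in the lower. At the looser threshold of 1.5-fold, 3 of the 9 genes were higher, against 12.7% of all genes, and 2 were lower, against 15.5%. The median log2 ratio of the 9 genes was -0.06, beside -0.04 over all genes, and the SD over genes was 0.76, beside 0.59. A gene counted as measured when a probe set exceeded, on either array, a floor of 68.9 signal units, the 40th percentile of all signals.

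**Figure D1:**
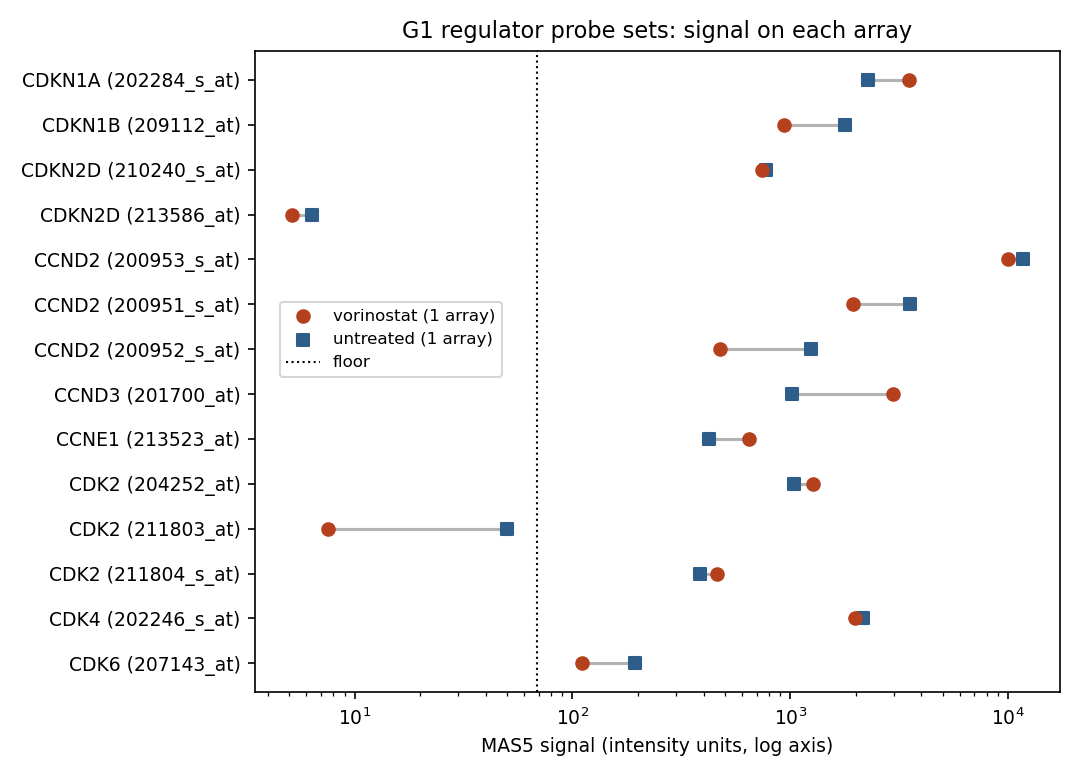
MAS5 signal (log axis) of the 14 probe sets of the G1 regulators on the vorinostat array (circles) and the untreated array (squares), with the floor of 68.9 units as a dotted line. The circle lies far right of the square for CCND3 (2956 and 1020), and left of it for CDKN1B, CDK6 and each of the 3 CCND2 probe sets, while 2 probe sets lie under the floor on both arrays.

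Without replicates, the spread between probe sets of a gene was taken as the error of a ratio. Over 2428 genes with more than 1 probe set above the floor on both arrays, the pooled SD of the log2 ratio within a gene was 0.30. This is a technical spread within 1 pair of arrays and leaves out the difference between separate cultures. Both arrays had a trimmed mean signal of 500.2, and the log2 ratios of 18 spike-in controls averaged 0.06 (SD 0.17). The ratio of the 3' to the 5' ACTB probe set was 1.24 on the vorinostat array and 1.06 on the untreated array, and that of GAPDH was 0.850 and 0.856. Of 8 Hodgkin cell markers, 7 were measured and CCL17 was under the floor on both arrays. Of the 7, 2 were at least 2-fold lower and 0 higher. TNFRSF8, which encodes CD30, had a signal of 3228 in vorinostat-treated cells and 10777 in untreated cells, and the AP-1 factor gene BATF3 had 1825 in vorinostat-treated cells and 6200 in untreated cells. IRF4 and GATA3 were 1.22-fold and 1.33-fold higher, and FSCN1, FUT4 and TRAF1 were 1.54-fold to 1.70-fold lower. Of 10 markers of B cells, monocytes, fibroblasts, endothelium, epithelium and red cells, 7 were under the floor on both arrays, the B-cell genes CD79A, CD79B and MS4A1 and the monocyte genes CD14 and LYZ among them. The summed signal of all 10 was 1011 on the vorinostat array and 1130 on the untreated array, and their part in the differences below was not tested.

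Among the KIP inhibitors, CDKN1A was higher and CDKN1B lower. The single CDKN1A probe set (202284_s_at) had a signal of 3505 in vorinostat-treated cells and 2267 in untreated cells, a log2 ratio of 0.63. Of all measured genes, 25.2% lay at least as far from equal signals in either direction. The CDKN1A probe set carries the suffix that marks probes shared between transcripts or genes. CDKN1B, the gene of p27, which restrains cyclin E and CDK2, was measured on 1 probe set without that suffix (209112_at). Its signal was 938 in vorinostat-treated cells and 1776 in untreated cells, a log2 ratio of -0.92, and 11.2% of measured genes lay at least as far from equal signals. The log2 ratio of CDKN1A exceeded that of CDKN1B by 1.55, so that the signal of CDKN1A relative to that of CDKN1B was 2.93-fold higher on the vorinostat array. This difference does not depend on how the arrays were scaled by a single factor. It was 1.53 to 1.57 under the 9 alternative settings that measured both genes. Most of these could not move it, since a scaling factor cancels and each gene has a single probe set well above the floors.

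The promoters of this pair and of CCND3 are shown because GC boxes in the CDKN1A promoter are the element described for its response to deacetylase inhibitors. The sequences are the 250 bases before each transcription start, 5' to 3' on the gene's strand, from RefSeq on build GRCh38.p14. Capitals mark each GC box, GGGCGG on either strand, with overlapping matches counted separately. The CDKN1A window lies at chr6:36678464-36678713 (plus strand), and the CDKN1B window at chr12:12717118-12717367 (plus strand). RefSeq gives CCND3 3 starts, all on the minus strand, with windows at chr6:42048689-42048938, chr6:41941809-41942058 and chr6:41939206-41939455.
CDKN1A: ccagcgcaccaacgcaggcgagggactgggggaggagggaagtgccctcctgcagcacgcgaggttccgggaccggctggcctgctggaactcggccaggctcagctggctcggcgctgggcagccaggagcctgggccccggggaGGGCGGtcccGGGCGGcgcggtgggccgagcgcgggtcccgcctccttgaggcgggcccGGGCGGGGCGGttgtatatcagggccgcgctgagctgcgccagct
CDKN1B: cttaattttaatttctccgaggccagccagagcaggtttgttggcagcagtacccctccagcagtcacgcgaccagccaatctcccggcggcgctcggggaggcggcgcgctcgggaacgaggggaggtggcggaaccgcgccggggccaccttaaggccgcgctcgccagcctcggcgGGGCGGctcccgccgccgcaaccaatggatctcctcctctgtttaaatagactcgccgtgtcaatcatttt
CCND3 upstream start: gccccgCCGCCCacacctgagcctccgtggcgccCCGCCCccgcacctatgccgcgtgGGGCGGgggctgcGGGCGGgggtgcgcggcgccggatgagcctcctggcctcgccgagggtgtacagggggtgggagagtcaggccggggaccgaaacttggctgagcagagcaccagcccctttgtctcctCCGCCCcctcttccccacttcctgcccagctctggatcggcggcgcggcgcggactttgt
CCND3 middle start: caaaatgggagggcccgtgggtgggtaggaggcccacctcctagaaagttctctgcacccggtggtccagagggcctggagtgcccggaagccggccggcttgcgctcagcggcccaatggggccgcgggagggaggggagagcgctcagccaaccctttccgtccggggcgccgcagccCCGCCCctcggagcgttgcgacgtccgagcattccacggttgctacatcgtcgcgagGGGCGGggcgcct
CCND3 downstream start: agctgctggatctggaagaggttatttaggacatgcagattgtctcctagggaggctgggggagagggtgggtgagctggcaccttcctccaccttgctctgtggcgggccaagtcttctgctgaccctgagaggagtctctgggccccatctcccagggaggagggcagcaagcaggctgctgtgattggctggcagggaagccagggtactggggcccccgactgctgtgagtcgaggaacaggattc

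The CDKN1A window held 4 GC boxes, all on the gene's strand, a pair of them overlapping by 1 base, between 104 and 34 bases before the start. The CDKN1B window held 1, between 71 and 65 bases before the start. The 3 CCND3 windows held 5, 2 and 0, in order of transcription, and the array does not tell which start gave the signal. Windows were found for 8 of the 10 member genes, and none for CCND2 and CDK2. The 8 take in CDKN2C, which has 3 windows but no signal on these arrays. Of the 13 windows of these 8 genes, 10 (76.9%) held at least 1 GC box, beside 42.6% of 35116 promoter windows of the same length. Of those 35116 windows, 13.9% held at least 3. Each of the 8 genes had a GC box in at least 1 window, beside 46.2% of all genes in the table. The CCNE1 window had 7, and those of CDK4 and the upstream start of CDK6 had 3 each. E2F sites were searched as TTTCCCGC, TTTGGCGC, TTTCGCGC and TTTGCCGC on both strands. These letters were in 0 of the 13 member windows and in 2.79% of all windows. A match describes the sequence and is no measure of binding.

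The remaining inhibitor was CDKN2D, the gene of the INK4 protein p19, which binds CDK4 and CDK6. Its probe set above the floor (210240_s_at) had a signal of 744 in vorinostat-treated cells and 776 in untreated cells, a log2 ratio of -0.06 that became 0.07 when the arrays were scaled to equal medians. Its other probe set (213586_at) read 5.15 and 6.38, under the floor on both arrays, and gives no ratio. Of the inhibitors outside the members, CDKN2B was under the floor on both arrays. CDKN2A, the gene of p16, exceeded the floor with 1 of its 3 probe sets and in untreated cells alone (34.1 in vorinostat-treated cells, 95.0 in untreated cells), a bound of at least 1.38-fold lower. CDKN1C, the third KIP gene, had signals of 65.1 in vorinostat-treated cells and 92.7 in untreated cells, at least 1.35-fold lower. CDKN3, a phosphatase that acts on CDK2, had 1226 in vorinostat-treated cells and 551 in untreated cells, 2.22-fold higher.

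The D cyclins lay on opposite sides of equal signals, CCND2 by a size that depended on the probe set. CCND3 (201700_at, a probe set without the shared-sequence suffix) had a signal of 2956 in vorinostat-treated cells and 1020 in untreated cells. The log2 ratio was 1.54, a 2.90-fold higher signal, and 1.80% of all measured genes lay at least as far from equal signals in either direction. CCND3 belonged to the brightest of 3 equal classes of genes by signal, 2458 genes of which 6.55% were at least 2-fold apart. The cyclin D3 ratio rests on 1 probe set, so no other reading of it exists on these arrays.

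CCND2, which encodes cyclin D2, was read by 3 probe sets, all lower in treated cells and by unequal factors. The brightest (200953_s_at) had 9997 in vorinostat-treated cells and 11721 in untreated cells, 1.17-fold lower. The next (200951_s_at) had 1944 in vorinostat-treated cells and 3549 in untreated cells, 1.83-fold lower. The dimmest (200952_s_at) had 476 in vorinostat-treated cells and 1251 in untreated cells, 2.63-fold lower. At the level of probe sets this was the 1 member at least 2-fold lower and CCND3 the 1 at least 2-fold higher, of 12 measured. Over all 14194 measured probe sets, 3.65% reached 2-fold in the higher direction and 5.47% in the lower. The 3 log2 ratios of CCND2, -0.23, -0.87 and -1.39, had an SD of 0.58, above the pooled SD of 0.30, and all 3 probe sets carry the shared-sequence suffix. The direction of cyclin D2 was thus shared by its probe sets, and its size ranged between 1.17-fold and 2.63-fold. The log2 ratio of -0.23 on the brightest probe set, -0.10 with equal medians, was within the pooled SD.

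The log2 ratio of CCND3 exceeded that of CCND2 by 1.76, 2.40 or 2.93, depending on the CCND2 probe set. The signal of CCND3 relative to that of CCND2 was thus between 3.40-fold and 7.62-fold higher on the vorinostat array. Cyclin D1 did not enter this comparison, because both CCND1 probe sets were under the floor on both arrays (33.5 and 17.9 in vorinostat-treated cells, 44.9 and 6.24 in untreated cells).

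Cyclin E1 partners CDK2 at the end of G1. CCNE1 (213523_at) had a signal of 644 in vorinostat-treated cells and 425 in untreated cells, a log2 ratio of 0.60. CDK2 was read by 2 probe sets above the floor, which gave nearly the same ratio. The brighter (204252_at) had 1275 in vorinostat-treated cells and 1035 in untreated cells, 1.23-fold higher. The other (211804_s_at) had 459 in vorinostat-treated cells and 385 in untreated cells, 1.19-fold higher. The last CDK2 probe set (211803_at) read 7.59 in vorinostat-treated cells and 50.2 in untreated cells, both under the floor. The CDK2 log2 ratios of 0.30 and 0.25 were no larger than the pooled SD between probe sets of a gene. The E2 cyclin gene CCNE2 had signals of 122 in vorinostat-treated cells and 145 in untreated cells, 1.19-fold lower.

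Of the kinases that pair with D cyclins, CDK6 was the lower one. CDK6 (207143_at) had 111 in vorinostat-treated cells and 194 in untreated cells, a log2 ratio of -0.81, close to the floor. It was the 1 member in the dimmest of the 3 classes by signal, of which 9.68% were at least 2-fold apart. CDK4 (202246_s_at) had 1973 in vorinostat-treated cells and 2153 in untreated cells, a log2 ratio of -0.13 that became 0.00 with equal medians and lay within the spread between probe sets. The log2 ratio of CCND3 exceeded that of its partner CDK4 by 1.66 and that of CDK6 by 2.34.

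**Figure D2:**
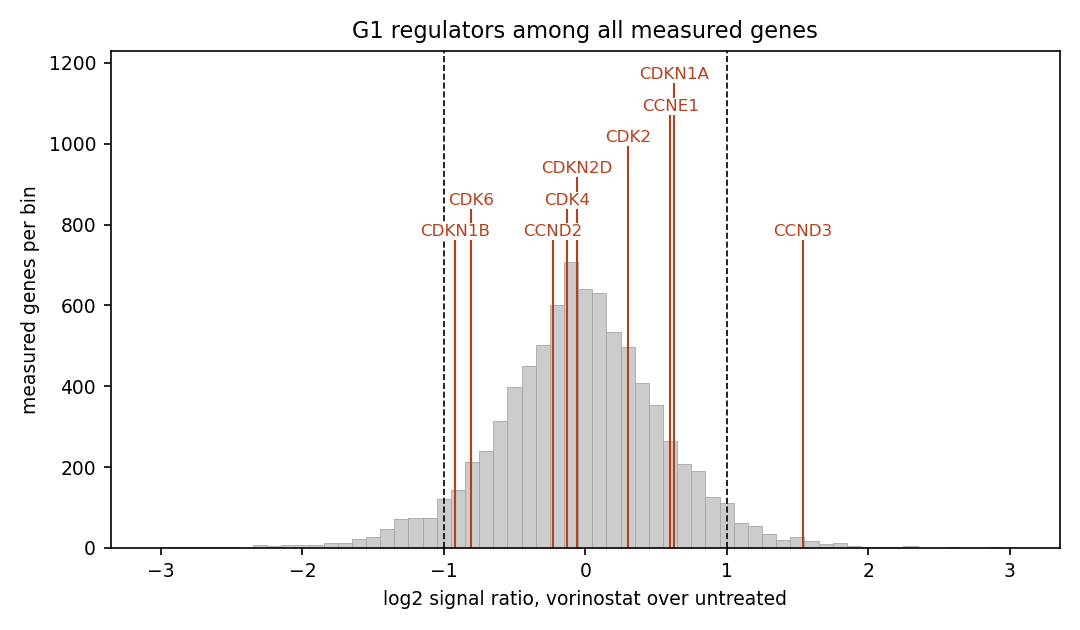
Log2 signal ratio, vorinostat over untreated, of all 8277 measured genes (bars, count per bin), with a line for each of the 9 G1 regulators on its brightest probe set and dashed lines at 2-fold. CCND3 at 1.54 is outside the dashed lines, CDKN1B at -0.92 and CDK6 at -0.81 are just inside the lower one, and the other 6 are between -0.23 and 0.63.

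To place the members in their pathway, 88 further genes in 11 lists were examined, of which 76 were measured. Of these, 5 (6.58%) reached 2-fold in the higher direction and 5 (6.58%) in the lower, beside 3.77% and 5.12% of all measured genes, and their median log2 ratio was -0.06. The 5 higher genes were CDKN3, MNAT1, FBXW7, CDC6 and CDK8. The 5 lower genes were E2F8, FOXM1, CDK10, CDC25A and CUL4A. CDKN3, MNAT1, FBXW7 and FOXM1 each rest on a single probe set with the shared-sequence suffix. The brightest probe sets of CDC6, CDK10 and CUL4A carry that suffix too. CDC25A, CDK10 and CUL4A lay close to the threshold, at log2 ratios of -0.92, -0.95 and -0.89 with equal medians. With the floor at the 60th percentile, CDC25A and CDK10 were at -0.71 and -0.82.

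Of the 3 genes of the RB family, 0 were 2-fold apart. RB1, the retinoblastoma gene itself, had a signal of 277 in vorinostat-treated cells and 162 in untreated cells, 1.71-fold higher. Its second probe set had 131 in vorinostat-treated cells and was under the floor in untreated cells, at least 1.90-fold higher. For RBL2, the gene of p130, the brighter probe set gave a 1.40-fold lower signal. Its other probe set had 479 in vorinostat-treated cells and 454 in untreated cells, a log2 ratio of 0.08. RBL1, the gene of p107, was 1.14-fold lower, close to the floor (75.8 in vorinostat-treated cells, 86.2 in untreated cells). Its log2 ratio of -0.19 was within the pooled SD of 0.30. Both RB1 probe sets thus pointed one way, while those of RBL2 did not share a direction.

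Among the 8 measured E2F and DP genes 1 was lower and 0 were higher past 2-fold. E2F8, an E2F that represses, had 83.1 in vorinostat-treated cells and 241 in untreated cells, 2.90-fold lower, but with the floor at the 60th percentile its log2 ratio was -0.08. E2F1, an activating E2F, had 237 in vorinostat-treated cells and 373 in untreated cells (1.57-fold lower), and its other probe set was 1.47-fold lower. The dimerisation partner gene TFDP1 was 1.27-fold and 1.83-fold lower on its probe sets, whereas TFDP2 was 1.56-fold higher and at least 2.22-fold higher.

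CDKs need an activating phosphorylation from a complex of CDK7, cyclin H and the assembly factor MNAT1, and the removal of inhibitory phosphates by CDC25 phosphatases. Of these 7 genes, counted with the kinase chaperone gene CDC37, 1 was higher and 1 lower. MNAT1 had 1622 in vorinostat-treated cells and 703 in untreated cells, 2.31-fold higher. CCNH was 1.58-fold and CDK7 1.33-fold higher, so each gene of the activating complex had the higher signal in treated cells. CDC25A, which removes inhibitory phosphates from CDK2, had 181 in vorinostat-treated cells and 374 in untreated cells, 2.07-fold lower, and at least 1.38-fold lower on its other probe set. CDC25B was 1.31-fold lower.

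Cyclin E, p27 and p21 are degraded through SCF and CUL4 ubiquitin ligases, of which 14 subunit genes were measured, 1 of them higher and 1 lower past 2-fold. FBXW7, the subunit that recognises cyclin E, had 840 in vorinostat-treated cells and 372 in untreated cells, 2.26-fold higher. SKP2, the subunit that recognises p27, had 359 in vorinostat-treated cells and 339 in untreated cells on the brightest of 3 probe sets, whose log2 ratios were 0.08, -0.30 and -0.32. CKS2, a small CDK-binding protein gene, was 1.92-fold higher. The scaffold gene CUL1 was 1.63-fold lower, and CUL4A had 534 in vorinostat-treated cells and 1082 in untreated cells, 2.03-fold lower, with 1.28-fold lower on its other probe set.

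Of 12 measured E2F target genes of S phase, 1 was at least 2-fold higher and 0 lower. CDC6, a replication licensing gene, had 553 in vorinostat-treated cells and 220 in untreated cells, 2.51-fold higher, and its second probe set was 2.60-fold higher. The thymidylate synthase gene TYMS was 1.73-fold lower, MYBL2 was 1.43-fold lower, and the thymidine kinase gene TK1 was 1.47-fold higher. Of 8 proliferation markers, 0 were higher and 1 lower past 2-fold. The log2 ratio was above 0 for 2 of the 8 and below 0 for 6, with a median of -0.25. For BUB1 it was 0.30, with -0.19 from the next brightest probe set of that gene. For AURKB and CCNB1 it was -0.31 and -0.36. FOXM1, a transcription factor of mitotic genes, had 474 in vorinostat-treated cells and 1084 in untreated cells, 2.29-fold lower on a single probe set that can share sequence. MKI67, the gene of Ki-67, had 890 in vorinostat-treated cells and 1553 in untreated cells on its brightest probe set, 1.75-fold lower, and its other 3 probe sets were 1.26-fold to 1.94-fold lower.

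Among 10 measured CDKs outside the members, 1 was higher and 1 lower past 2-fold. CDK8, a kinase of the Mediator complex, was 2.17-fold higher, CDK10 was 2.12-fold and 1.36-fold lower on its measured probe sets, and CDK1, the mitotic kinase, was 1.52-fold higher. Of 10 measured transcription factors known to act on the CDKN1A promoter, 0 were 2-fold apart. SP3 had 1158 in vorinostat-treated cells and 1682 in untreated cells (1.45-fold lower) and SP1 had 142 in vorinostat-treated cells and 195 in untreated cells (1.38-fold lower). Of the FOXO genes, known activators of CDKN1B, FOXO1 was 1.39-fold lower and FOXO3 had a log2 ratio of 0.03, while FOXO4 was under the floor on both arrays.

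**Figure D3:**
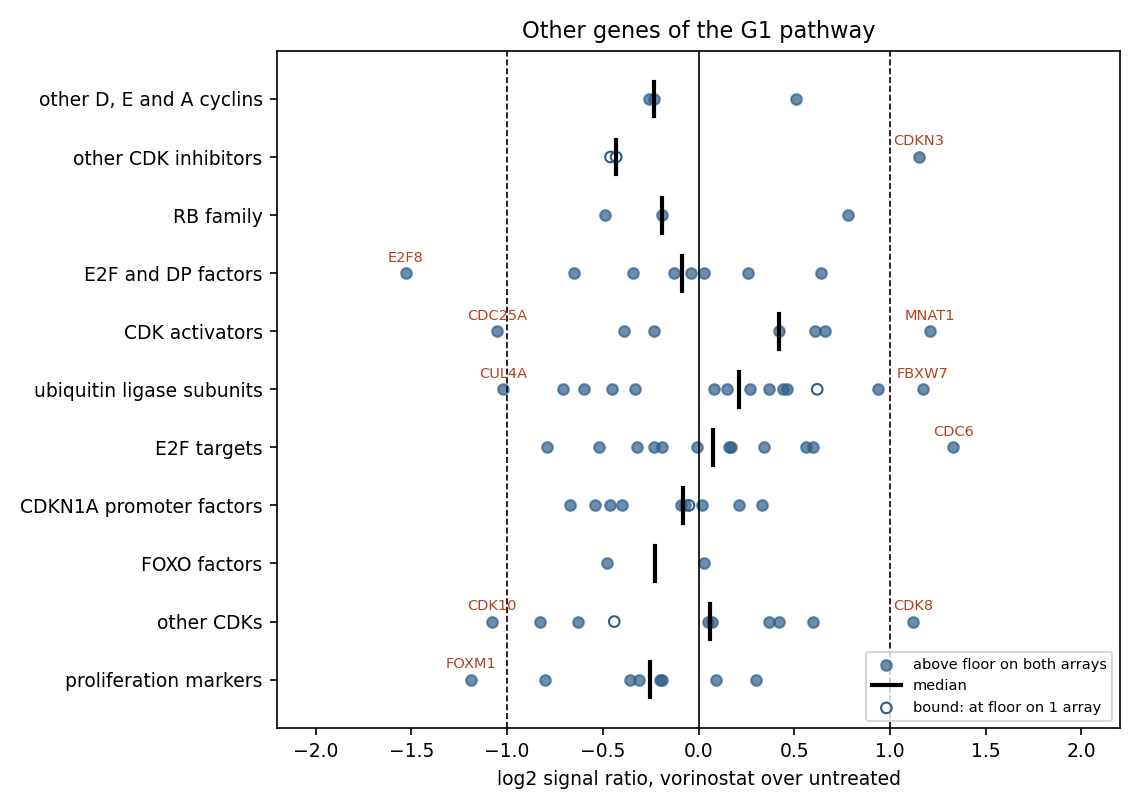
Log2 signal ratio, vorinostat over untreated, of the measured genes in 11 lists of the G1 pathway, each on its brightest probe set, with list medians as black bars and 2-fold as dashed lines. Named genes are at least 2-fold apart, 5 on either side, and open circles are bounds for genes at the floor on 1 array.

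The order of the member ratios was kept in part by construction. Scaling to equal medians shifts these ratios alike, and the other floors left each ratio they gave unchanged. With quantile normalization CCNE1 (0.62) lay above CDKN1A (0.61). With the median over probe sets CCND2 (-0.87) lay below CDK6 (-0.81). CCND3 had the highest ratio in each of the 10 alternative settings, between 1.48 and 1.66. CDKN1A (0.60 to 0.76), CCNE1 (0.58 to 0.73) and CDK2 (0.26 to 0.43) stayed above 0, and CDKN1B (-0.97 to -0.79), CDK6 (-0.81 to -0.68) and CCND2 (-0.87 to -0.10) below it, in each alternative that measured them. Of the 8 neighbouring pairs in the order of the setting used, 5 differed by no more than the SD of 0.30 between probe sets. The other 3 gaps lay between CCND3 and CDKN1A (0.91), CDK2 and CDKN2D (0.36), and CCND2 and CDK6 (0.58). The SD of 0.30 is that of a single ratio, and a difference between ratios has a larger error. The gap of 0.36 is thus not shown to exceed the error, and no gap was tested.

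**Figure D4:**
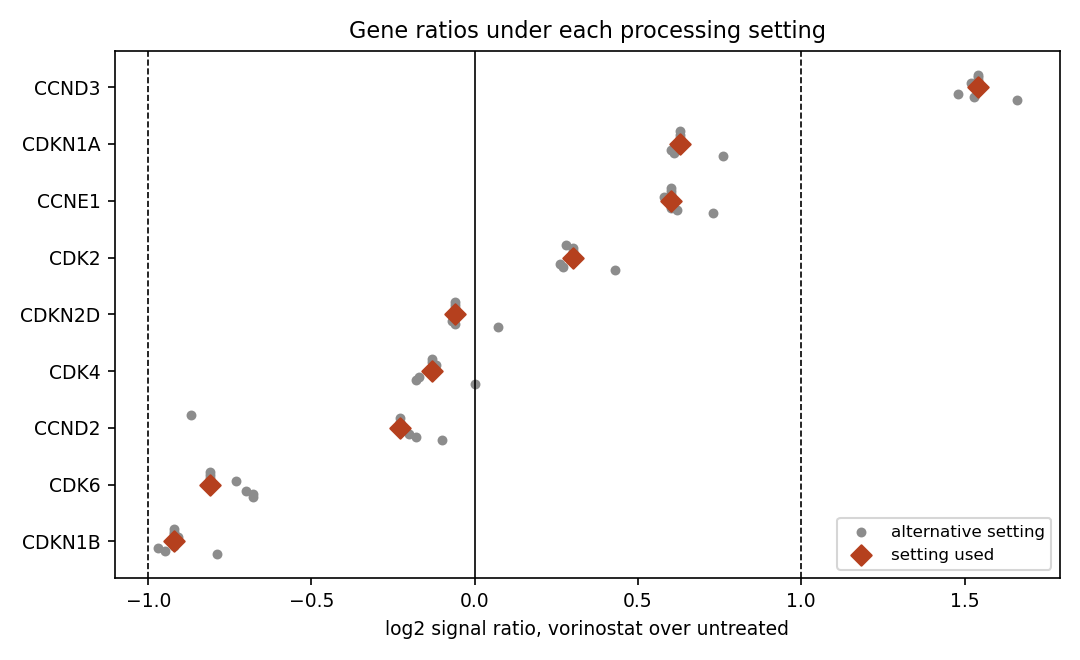
Log2 signal ratio, vorinostat over untreated, of the 9 G1 regulators in the setting used (diamonds) and in up to 10 alternative settings (dots), with dashed lines at 2-fold. CCND3 stays between 1.48 and 1.66, CDK4 and CDKN2D reach or cross 0 with equal medians, and the isolated CCND2 dot at -0.87 is the median over its probe sets.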

How the data were processed

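Total RNA of 1 vorinostat-treated and 1 untreated L-540 culture was hybridised to 1 array each. The authors deposited 1 intensity per probe set, which the submitters' processing notes credit to MAS5. Its version, scaling target and detection calls are not given in the sources used here. Signals are scaled in MAS5 by 1 factor per array, and the deposited scaling was kept.

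Of 22283 probe sets, 68 controls were set aside. The platform annotation gave 1 symbol to 19065 probe sets, several to 1043 and none to 2107. Signals under the floor, the 40th percentile of pooled signals, were set to it before taking log2 (Python 3.11.15, numpy 2.4.6, pandas 2.3.3). A probe set under it on both arrays gave no ratio, and on 1 array a bound. Each gene was represented by its brightest probe set. Ratios are vorinostat over untreated. Genes at least 2-fold apart were counted, with no test, and the number of arrays limits the precision. The step from signals to ratios was tested on simulated data, with planted changes larger than 2-fold in bright probe sets only. Smaller changes and the choice of the brightest probe set per gene were not tested.

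The members and lists were chosen with earlier results of these data known. Named were all members, genes of the pathway lists at least 2-fold apart, up to 4 others per list, the 7 measured Hodgkin cell markers, and CCND1, CDKN2A, RB1, E2F1, SKP2, SP1, SP3 and MKI67. With 2 arrays no likeness of patterns was computed. Alternatives were equal medians, quantile normalization, loess with statsmodels 0.14.6, other floors, an offset of 16, no floor, no shared-sequence probe sets, the median over probe sets, and other thresholds.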

Additional observations from a re-analysis of the deposited data

How the results depend on the processing

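Under the alternatives, 201 of 203 single ratios and differences moved by less than 0.30, the SD between probe sets of a gene. The exceptions came from the median over probe sets, where CCND2 had a log2 ratio of -0.87 and the difference between CCND3 and CCND2 was 2.40. The count was in part fixed in advance, and is no measure of error. A changed floor cannot move a ratio whose signals stay above it on both arrays. A gene read by a single probe set was also counted again as that probe set. The differences between members were computed as additions chosen after seeing the data. At 1.5-fold, 3 member genes were higher and 2 lower, beside 12.7% and 15.5% of all genes, because the threshold is looser. Of the member probe sets, 3 were higher and 4 lower at 1.5-fold. The share over all probe sets was not computed at 1.5-fold, nor any share at 3-fold. At 3-fold, 0 member genes and 0 member probe sets were higher, and 0 probe sets were lower. When the floor was replaced by an offset, or by nothing, 2 of 14 member probe sets were at least 2-fold lower, the second being the dim CDK2 probe set. Of all genes, 5.91% with the offset and 10.7% without floor or offset were at least 2-fold lower. The share over all probe sets was not computed in these settings. Without shared-sequence probe sets 0 were lower, since all 3 CCND2 probe sets drop out, and 5 member genes were measured. With the floor at the 60th percentile CDK6 had no value. Over all genes, 42.4% of those 2-fold apart were higher, against 58.8% with equal medians, which moved the median log2 ratio of all genes to 0.08 from -0.04. Without floor or offset 907 genes were higher and 1282 lower, against 312 and 424. The number of further pathway genes measured changed with the setting. With equal medians 6 of 75 were higher and 2 lower, and with the median over probe sets 5 of 76 were higher and 2 lower. With the floor at the 60th percentile 5 of 65 were higher and 2 lower, without floor or offset 8 of 83 were higher and 6 lower, and without shared-sequence probe sets 2 of 43 were higher and 2 lower. No paired analysis was possible because each group has 1 array. No array could be left out for the same reason. CDK6 is limited by its low signal.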
